A study of Mus musculus with 2 samples.

Results

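The genes described here are the 10 subunit genes of Polycomb repressive complex 2 (PRC2), out of 50508 genes in the deposited table. They were taken by symbol: Ezh1, Ezh2, Eed, Suz12, Jarid2, Mtf2, Phf19, Aebp2, Rbbp4 and Rbbp7. Each had a row, and each passed a mean of 1 FPKM over both libraries, as did 13243 genes of the table. FPKM is the number of fragments per kilobase of gene length, scaled to the depth of the library. A fragment is a read or a read pair, and the fragments counted are called reads below. The data are RNA sequencing of E14, a mouse embryonic stem cell line of strain 129/Ola, between passages 15 and 18. Both cultures grew on a gelatin coat, in medium with 15% serum and LIF (leukemia inhibitory factor) at 1000 U/ml. RNA was taken 72 h after transfection with a scramble siRNA in one group and an siRNA against Mettl8 in the other. Each group is 1 library of 1 line, so replicate error is unknown for every value, no test between groups is possible, and every interval covers counting error only.

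PRC2 places methyl groups on lysine 27 of histone H3, the mark H3K27me3, and keeps many developmental genes silent. EZH2 or its paralog EZH1 carries the catalytic SET domain. EED and SUZ12 are needed for activity, and RBBP4 or RBBP7 binds histones. A complex then holds either a Polycomb-like protein (PHF1, MTF2 or PHF19), a form called PRC2.1, or JARID2 and AEBP2, a form called PRC2.2. In mouse embryonic stem cells PRC2 is dispensable for self-renewal but needed for orderly differentiation.

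The library labelled Mettl8 siRNA held far more Mettl8 reads than the library labelled scramble siRNA, 15615 against 107 (100.3 and 0.67 FPKM). The targeted gene thus went against its label, and differences and ratios are given as the library labelled Mettl8 siRNA against the library labelled scramble siRNA. The denominators rebuilt from the values were 28.5 and 27.8 M reads, where M is 10 to the power 6. The stem cell markers Pou5f1 (155 and 164 FPKM) and Nanog (175 and 173 FPKM) were high in both libraries. All 8 stem cell markers examined were at 17.5 FPKM or more, while 8 of 8 fibroblast markers, among them Col1a1, Col1a2 and Col3a1, were at 0.72 FPKM or less in each library. In bulk RNA, fewer cells of a type and less RNA per cell cannot be told apart.

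The paralogs are shown first because the shares below rest on telling their reads apart. In GENCODE M21, on GRCm38, Ezh1 lies on chromosome 11 (101191115 to 101226463, minus strand) and Ezh2 on chromosome 6 (47530139 to 47595341, minus strand). Rbbp4 lies on chromosome 4 (129307100 to 129335370, minus strand) and Rbbp7 on the X chromosome (162760402 to 162779092, plus strand). The longest coding sequences of Ezh1 and Ezh2 were identical at 70.4% of 2143 aligned bases, and those of Rbbp4 and Rbbp7 at 78.4% of 1272. The longest identical run shared by any annotated transcripts of each pair was short, and lay in the coding sequence of both genes:
Ezh1 and Ezh2, 17 bases: aagtatgtgggcatcga
Rbbp4 and Rbbp7, 20 bases: aaccatgaaggagaagtgaa
Mtf2 and Phf19, 14 bases: tggaaggacatcca

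Eed lies on chromosome 7 (89954654 to 89980983, minus strand), Suz12 on chromosome 11 (79993106 to 80034123, plus strand) and Jarid2 on chromosome 13 (44729474 to 44921643, plus strand). Mtf2 lies on chromosome 5 (108065674 to 108109004, plus strand), Phf19 on chromosome 2 (34893757 to 34914026, minus strand) and Aebp2 on chromosome 6 (140622663 to 140678472, plus strand). In the 3 pairs above, no 50-base word was common to both genes. Over all 50-base words of a member's transcripts, the share found in transcripts of any other gene was 0% for Phf19 and Jarid2 and at most 17.2%, in Rbbp4. Of the 1517 shared words of Rbbp4, 76 were on the same strand as in the other gene. Of Rbbp7's words, 6.97% also occurred in Gm6382, a gene with 6 and 7 reads.

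Promoters are shown for the 3 members in which a script found an E2F motif. E2F factors drive genes of DNA replication, and human EZH2 and EED are known E2F targets. The motif was searched as TTTCCCGC, TTTCGCGC, TTTGCCGC or TTTGGCGC on both strands, from 250 bases before to 50 after each RefSeq start, and is in capitals below. The sequences are from RefSeq on GRCm38.p6, printed 5′ to 3′ on the gene's strand: Ezh2 at chr6:47594981-47595280 (minus), Suz12 at chr11:79992856-79993155 (plus) and Phf19 at chr2:34913927-34914226 (minus).
Ezh2: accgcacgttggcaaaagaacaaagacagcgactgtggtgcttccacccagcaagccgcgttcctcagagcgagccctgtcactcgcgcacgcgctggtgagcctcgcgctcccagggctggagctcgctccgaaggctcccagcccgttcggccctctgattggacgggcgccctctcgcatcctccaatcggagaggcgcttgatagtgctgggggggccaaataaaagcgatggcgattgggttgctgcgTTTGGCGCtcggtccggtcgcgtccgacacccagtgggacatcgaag
Suz12: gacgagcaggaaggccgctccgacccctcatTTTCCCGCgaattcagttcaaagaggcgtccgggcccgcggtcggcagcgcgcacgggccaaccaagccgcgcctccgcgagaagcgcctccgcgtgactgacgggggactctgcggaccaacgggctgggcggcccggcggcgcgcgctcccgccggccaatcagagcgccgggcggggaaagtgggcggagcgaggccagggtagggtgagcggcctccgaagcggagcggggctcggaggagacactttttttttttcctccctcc
Phf19: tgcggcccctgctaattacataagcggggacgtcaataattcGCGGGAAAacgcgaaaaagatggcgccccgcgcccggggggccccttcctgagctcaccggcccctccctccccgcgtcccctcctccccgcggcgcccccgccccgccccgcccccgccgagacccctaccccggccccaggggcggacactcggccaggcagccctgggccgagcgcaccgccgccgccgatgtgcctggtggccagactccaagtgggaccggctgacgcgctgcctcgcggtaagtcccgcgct

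The motif began at the fourth base of the transcript in Ezh2, 219 bases before the start in Suz12 and 208 bases before it in Phf19. It was present in 3 of the 14 promoters listed for the members, against 2.26% of all 32851 promoters and 4.40% of the 9882 promoters of protein-coding genes with a mean of at least 1 FPKM. Eed and the other 6 members had no match in this window. The E-box CACGTG, which MYC proteins bind, was found in 1 of the 14, that of Rbbp4, and in 10.8% of the expressed set. The observed-to-expected ratio of CpG in these windows had a median of 0.856 over the 14, close to 0.778 in the expressed set and above 0.384 over all promoters. The lowest were 0.132 in a window of Mtf2 and 0.215 and 0.232 in windows of Aebp2, each of which also has a window above 0.77. A match is a description of letters and no evidence of binding.

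The deposited gene lengths set the scale of every level. Each member's length equalled the summed union of annotated exons (GENCODE M21), with a difference of 0 bases for 10 of 10. This union counts alternative and intron-retaining transcripts, so it exceeded the longest protein-coding transcript in each member. For Ezh2 the transcript was 41.7% of the deposited length (2787 of 6678 bases), for Rbbp4 50.4% (4407 of 8744) and for Suz12 88.4% (4373 of 4945). Rbbp4 and Rbbp7 have coding sequences of the same length, 1275 bases, but deposited lengths of 8744 and 2909. Levels are therefore given per deposited length, and the order of the members also per transcript and per coding sequence.

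**Figure D1:**
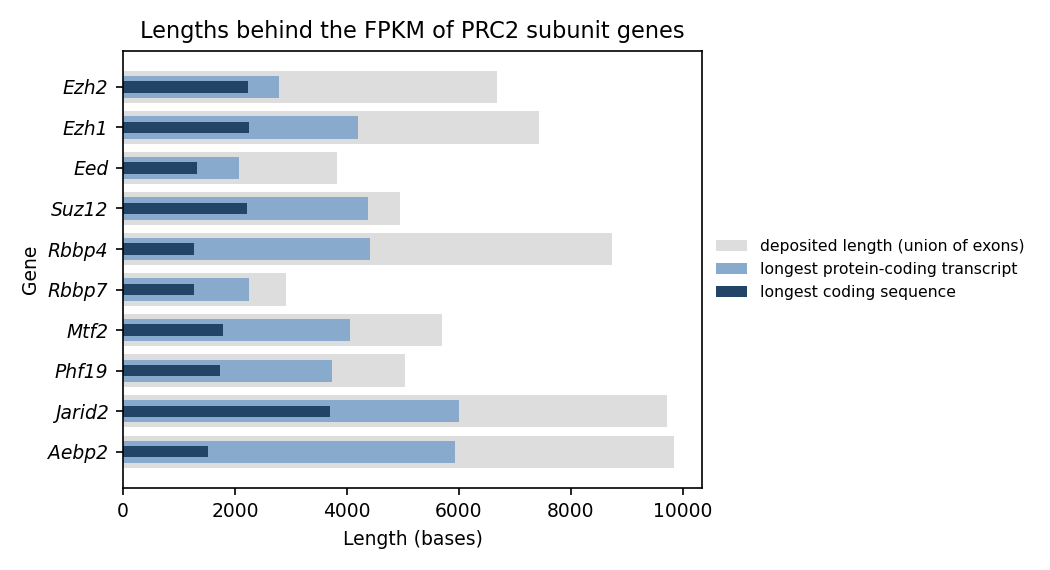
Lengths in bases of the 10 PRC2 subunit genes: the deposited length (grey), the longest annotated protein-coding transcript (light blue) and the longest coding sequence (dark blue). Rbbp4 and Aebp2 have the smallest coding share of the deposited length, 14.6% and 15.3%.

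The catalytic subunits were unequal, with Ezh2 well above Ezh1 in both libraries. The level of Ezh2 in the library labelled scramble siRNA was 12.7 FPKM, with an exact 95% Poisson interval of 12.2 to 13.2, from 2410 reads. Its level in the other library was 15.2 FPKM (14.6 to 15.7), from 2814 reads. Pairs of values for other genes are given in the same order. Ezh1, whose product is the less active methyltransferase and prevails in non-dividing cells, was 4.18 FPKM (3.91 to 4.46) and 3.87 FPKM (3.61 to 4.15), from 885 and 801 reads. The counting intervals of Ezh2 do not overlap between the libraries, and those of Ezh1 do. Ezh2 exceeded Ezh1 3.03-fold in the first library and 3.91-fold in the second.

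Of the FPKM of the pair, Ezh2 took 75.2% (73.7 to 76.6, exact Clopper-Pearson interval carried to the per-length scale) in the library labelled scramble siRNA and 79.7% (78.3 to 80.9) in the other. These intervals do not overlap either. Per longest coding transcript the shares were 80.4% and 84.1%, so the order of the paralogs does not depend on the length used. The sum of the pair was 16.86 and 19.02 FPKM.

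The non-catalytic core genes were more abundant than the catalytic pair on the FPKM scale. Suz12 was 41.5 FPKM (40.4 to 42.5) and 41.4 FPKM (40.3 to 42.5), from 5835 and 5692 reads. Eed was 22.9 FPKM (22.0 to 23.8) and 25.7 FPKM (24.8 to 26.7), from 2492 and 2740 reads. Suz12 did not differ between the libraries beyond counting error, while the Eed intervals lie apart. Suz12 exceeded the sum of Ezh1 and Ezh2 2.46-fold and 2.18-fold, and Eed exceeded it 1.36-fold and 1.35-fold. Per longest coding transcript, on the same depth scale, Suz12 was 46.9 and 46.8 and Eed 42.4 and 47.7. Ezh2 was then 30.4 and 36.3, and Ezh1 7.39 and 6.84. The excess of Suz12 and Eed over the sum of the catalytic pair was thus smaller per transcript, and its size depends on the length used. The order of Suz12 and Eed in the library labelled Mettl8 siRNA also depends on the length used.

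The histone-binding genes Rbbp4 and Rbbp7 also serve the NuRD and SIN3 deacetylase complexes and, for RBBP4, chromatin assembly factor CAF-1, so their RNA is not that of PRC2 alone. Rbbp7 was 54.9 FPKM (53.3 to 56.5) and 54.1 FPKM (52.5 to 55.7). Rbbp4 was 31.4 FPKM (30.7 to 32.1) and 33.0 FPKM (32.3 to 33.8), with intervals that do not overlap. Rbbp7 took 63.7% (62.8 to 64.5) and 62.1% (61.2 to 62.9) of the FPKM of the pair. This order turned with the length used: per longest coding transcript Rbbp7 took 53.4% and 51.7%, and per coding sequence 36.8% and 35.2%. Which of the RBBP paralogs has more transcripts is thus not settled by these values.

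**Figure D2:**
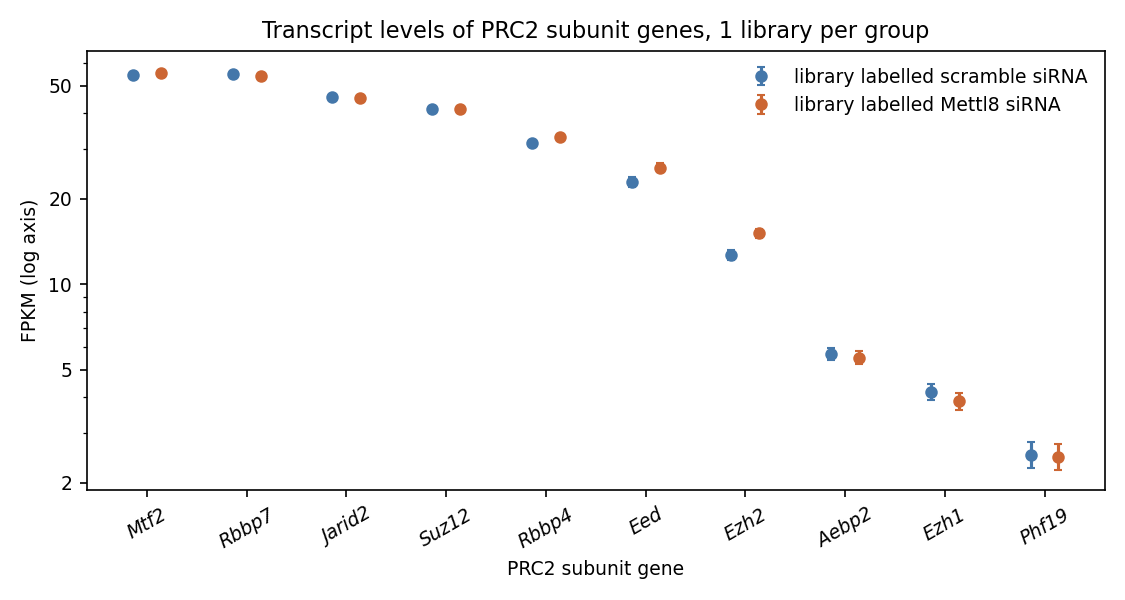
FPKM (log axis) of the 10 PRC2 subunit genes in the library labelled scramble siRNA (blue) and the library labelled Mettl8 siRNA (orange); bars are exact 95% Poisson intervals, often smaller than the points. Levels run from about 2.5 FPKM for Phf19 to 55 FPKM for Mtf2 and Rbbp7, and Ezh2, Eed and Rbbp4 show pairs of intervals that do not overlap.

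Among the Polycomb-like genes of PRC2.1, which bring the complex to unmethylated CpG islands, Mtf2 prevailed. Mtf2 was 54.7 FPKM (53.6 to 55.8) and 55.4 FPKM (54.2 to 56.5), from 8870 and 8774 reads. Phf19 was 2.51 FPKM (2.26 to 2.78) and 2.47 FPKM (2.22 to 2.74), from 360 and 346 reads. Neither gene differed between the libraries beyond counting error. Phf1, the remaining Polycomb-like gene, was 2.86 and 2.95 FPKM, so Mtf2 took 91.1% of the FPKM of the 3 genes in both libraries. Mtf2 exceeded Phf19 21.8-fold and 22.4-fold.

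Jarid2 was the more abundant of the PRC2.2 genes. JARID2, a Jumonji-family protein without demethylase activity, and AEBP2, a zinc finger protein, both stimulate PRC2. Jarid2 was 45.6 FPKM (44.8 to 46.4) and 45.3 FPKM (44.5 to 46.1), from 12606 and 12251 reads, the most reads of any member. Aebp2 was 5.69 FPKM (5.41 to 5.97) and 5.52 FPKM (5.25 to 5.81), from 1595 and 1513 reads. Both pairs of intervals overlap. Jarid2 exceeded Aebp2 8.01-fold and 8.21-fold, and took 76.3% and 76.8% of the pair per coding sequence. Jarid2 and Aebp2 together held 46.1% and 45.6% of the FPKM summed over these genes and the 3 Polycomb-like genes. They held 45.7% and 45.1% per coding sequence and 50.1% and 49.6% per longest coding transcript. Of the reads, with no length taken into account, they held 60.1% and 59.6%. Per length, Jarid2 and Aebp2 thus held less than the Polycomb-like genes or about as much. Other PRC2.1 genes described below, such as Epop, are not in these sums.

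**Figure D3:**
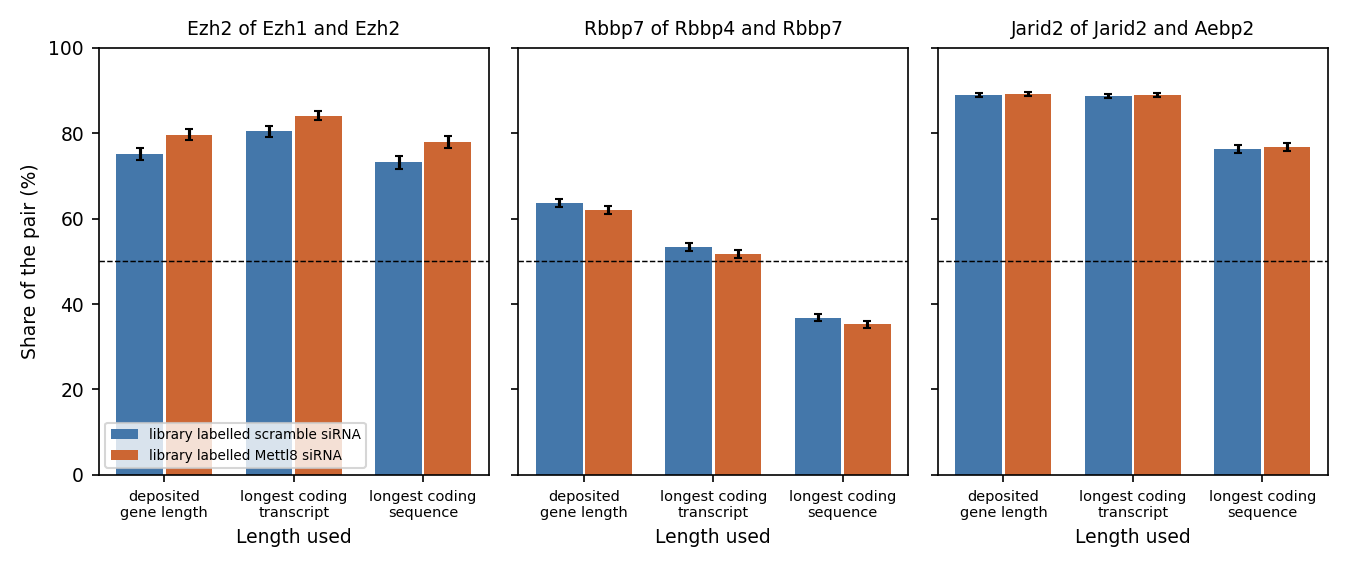
Share in percent of the first-named gene in each pair in the library labelled scramble siRNA (blue) and the library labelled Mettl8 siRNA (orange), per deposited length, longest coding transcript and longest coding sequence; bars are 95% counting intervals and the dashed line marks 50%. Ezh2 and Jarid2 lie above the line with each length, whereas Rbbp7 falls from 63.7% to 36.8% in the library labelled scramble siRNA.

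The order of the members on the FPKM scale was nearly the same in both libraries. From highest to lowest it was Rbbp7, Mtf2, Jarid2, Suz12, Rbbp4, Eed, Ezh2, Aebp2, Ezh1 and Phf19 in the library labelled scramble siRNA. Rbbp7 and Mtf2 changed places in the other, and these neighbours do not differ beyond counting error in either library. On this scale every other pair of neighbours had intervals that do not overlap, but these intervals hold no error of the length. Per longest coding transcript the upper part of the order was Mtf2 (76.8 and 77.7), Jarid2 (73.9 and 73.4), Rbbp7 (71.2 and 70.1) and Rbbp4 (62.2 and 65.6), all above Suz12. Per coding sequence Rbbp4 was the highest member, at 215 and 227, followed by Mtf2, Rbbp7, Jarid2 and Suz12 (92.2 and 92.0). The places of the 5 most abundant members thus depend on the length used. Suz12, Jarid2, Rbbp7 and Mtf2 lay at the 94.8 percentile or higher of the 9965 protein-coding genes with a mean of at least 1 FPKM. Aebp2, Ezh1 and Phf19 lay at 52.0, 40.2 and 23.9 percentile. These 3 were also the lowest members per longest coding transcript and per coding sequence. Per coding sequence, however, Aebp2 was only just below Ezh2 in the library labelled scramble siRNA, at 37.1 against 37.8. That gap is within counting error, so the place of Aebp2 below Ezh2 is not settled on that scale in that library.

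Between the libraries, Ezh2, Eed and Rbbp4 were higher in the library labelled Mettl8 siRNA by more than counting error, and 7 members were not distinguishable at this depth. On the log2(FPKM + 1) scale the difference was 0.24 for Ezh2, 0.16 for Eed and 0.07 for Rbbp4. The plain ratios were 1.19 (95% counting interval 1.13 to 1.26), 1.13 (1.07 to 1.19) and 1.05 (1.02 to 1.09). The other members had ratios from 0.926 for Ezh1 (0.841 to 1.02) to 1.01 for Mtf2 (0.983 to 1.04). The interval of Suz12 (0.962 to 1.04) and that of Jarid2 (0.970 to 1.02) were narrow around 1.

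**Figure D4:**
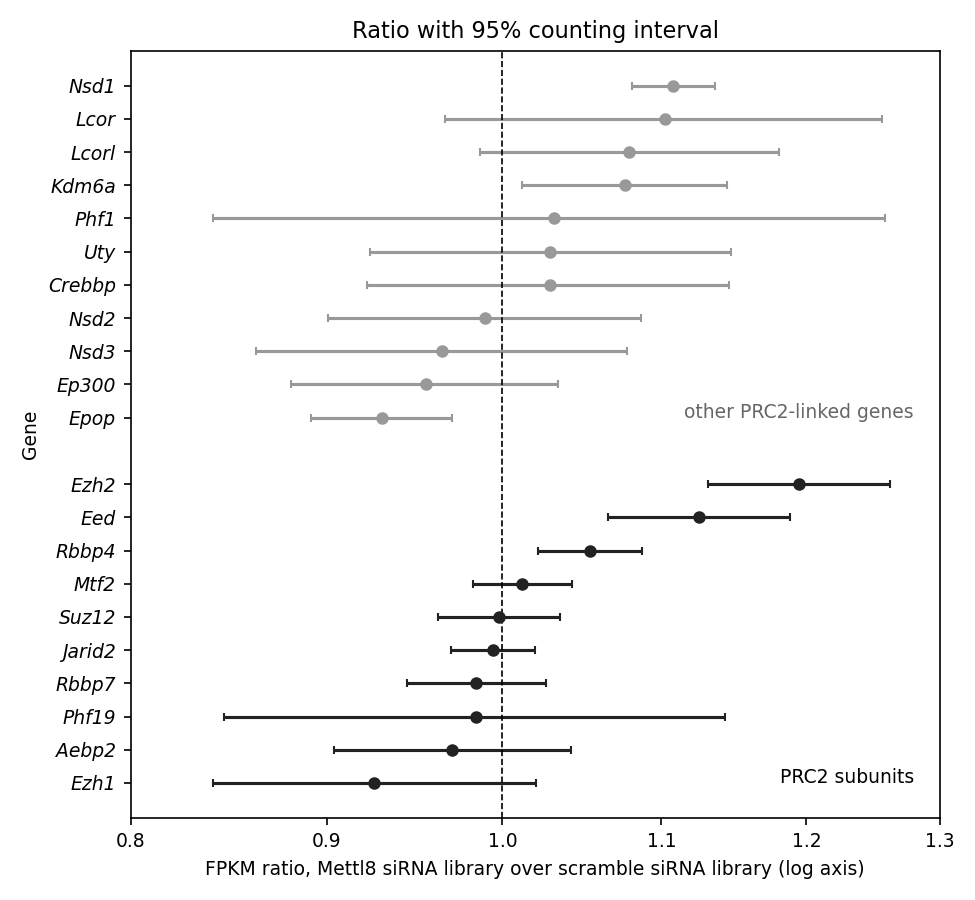
FPKM ratio of the library labelled Mettl8 siRNA over the library labelled scramble siRNA (log axis) with its 95% counting interval, for the 10 PRC2 subunits (black) and 11 other PRC2-linked genes with a mean of at least 1 FPKM (grey). Among the subunits only the intervals of Ezh2, Eed and Rbbp4 lie off the dashed line at 1.

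The count must be read against all genes. The interval lay above 1 in 3 of 10 members and in 13.8% of the 9965 protein-coding genes. It lay below 1 in 0 of 10 members and in 8.77% of these genes. This rule compares the libraries, not the conditions, and is met more often at higher read numbers. Of the 1012 genes with 5000 to 20000 reads over both libraries, 37.9% lay above 1, and 3 of the 6 members in that class did. The count of members is therefore near that of other genes of like depth.

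By the fixed rule of size, 0 members were at least 1.5-fold higher on the log2(FPKM + 1) scale, against 1.06% of the 13243 genes, and 0 were at least 1.5-fold lower, against 1.05%. All members are protein-coding, and genes of this type rarely passed the rule. Of the 9965 protein-coding genes with a mean of at least 1 FPKM, 4 were past it higher and 6 lower. Of the 10 members, 4 were higher and 6 lower, with a median difference of -0.0054. These counts stayed at 4 and 6 with the median ratio of protein-coding genes set to 1 and with equal reads over protein-coding genes. They also stayed so with 0.1 in place of 1 added to the FPKM. Rescaling each library to the same FPKM sum, which moves the median of all genes from 0.013 to 0.089, made them 9 and 1. Over all genes 54.1% were higher as deposited and 75.5% after this rescaling. The single gene farthest from the rest was Ezh2. Its difference lay at the 98.5 percentile of protein-coding genes, and 0.395% of genes with like read numbers had a larger one. Eed lay at the 93.8 percentile, with 4.05% of such genes above it. No spread between cultures was measured, so these positions describe 2 libraries.

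**Figure D5:**
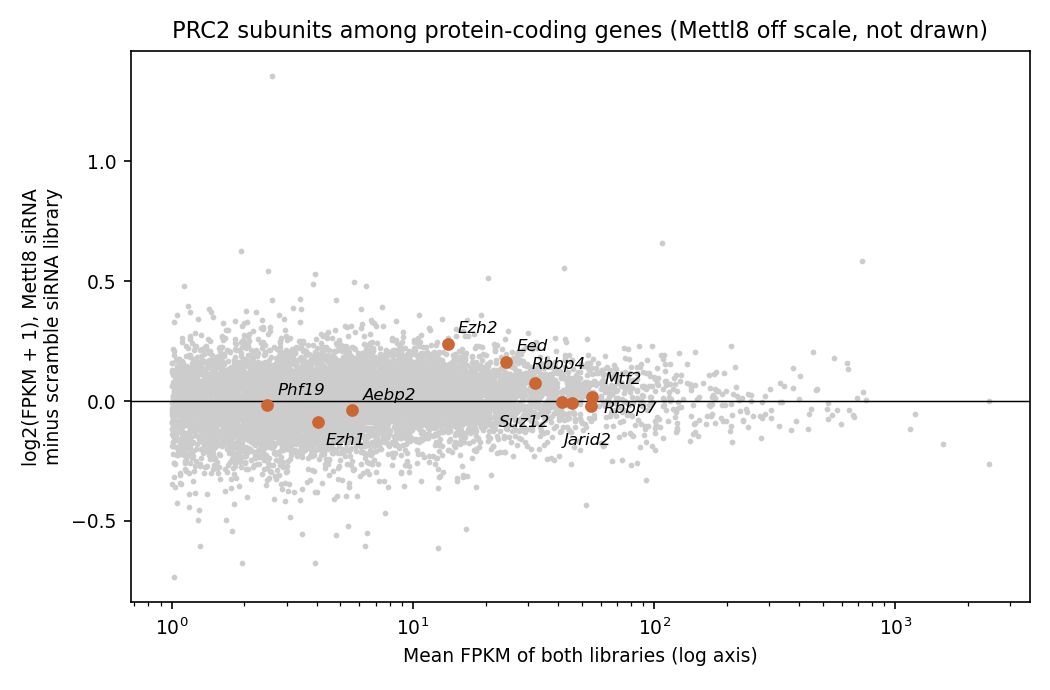
Difference on the log2(FPKM + 1) scale, library labelled Mettl8 siRNA minus library labelled scramble siRNA, against the mean FPKM (log axis) for protein-coding genes with a mean of at least 1 FPKM (grey) and the 10 PRC2 subunits (orange). Ezh2, at 0.24, lies near the upper edge of the cloud, and the other 9 members lie between -0.09 and 0.16.

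Reads of overlapping genes could not be separated by strand, because the strand setting is not given in the sources used here. In 6 of 10 members an annotated gene on the opposite strand shared at least 50 exon bases, against 29.96% of the protein-coding genes with a mean of at least 1 FPKM. The lincRNA gene Gm26625 shares 174 bases with Ezh2 and was 5.54 and 6.02 FPKM (ratio 1.09, 0.946 to 1.25). E230029C05Rik shares 261 bases with Eed and was 0.85 and 0.93 FPKM. Gm26563 shares 178 bases with Suz12 and was 5.82 and 5.93 FPKM. Rbbp4 shares 796 bases with Gm26722, a lincRNA gene at 43.2 and 42.7 FPKM, and 782 with Sync, at 1.06 and 1.19 FPKM. Txlng (5.99 and 6.43 FPKM) shares 174 bases with Rbbp7, and Tmed5 (10.2 and 10.2 FPKM) 395 with Mtf2. Merged over both genes, the stretches were 18.0% of the exon bases of Rbbp4 (1578 bases), and at most 6.93% in the other 5 members. Their part in the levels and ratios was not tested.

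Of 13 other genes that act with or against PRC2, 11 had a mean of at least 1 FPKM. Of the 11, 7 were higher and 4 lower, with a median difference of 0.03, beside 54.1% higher over all genes. After rescaling to the same FPKM sum 10 were higher and 1 lower, beside 75.5% higher over all genes. The other settings named for the members left the counts at 7 and 4. As deposited, 2 of the 11 had an interval above 1 and 1 below, against 13.8% and 8.77% of the protein-coding genes. Epop, whose product joins PRC2.1 with elongin, was the most abundant at 69.7 FPKM (67.7 to 71.8) and 64.8 FPKM (62.9 to 66.8), a ratio of 0.930 (0.892 to 0.970). Nsd1, a methyltransferase for lysine 36 of histone H3, a mark that hinders PRC2, was 33.2 and 36.7 FPKM (ratio 1.11, 1.08 to 1.14). Nsd2 was 1.90 and 1.88 FPKM and Nsd3 was 1.40 and 1.35 FPKM.

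The H3K27 demethylase gene Kdm6a was 8.68 and 9.34 FPKM (ratio 1.08, 1.01 to 1.14), above Kdm6b (0.73 and 0.61 FPKM) and the Y-linked homolog Uty (2.42 and 2.49 FPKM). The H3K27 acetyltransferase genes Ep300 and Crebbp were 3.12 and 2.98 FPKM and 1.74 and 1.79 FPKM. Lcor and Lcorl, whose loci encode the PRC2.1 proteins PALI1 and PALI2, were 2.05 and 2.26 FPKM and 1.77 and 1.91 FPKM. AU022751, the older symbol of the PRC2 inhibitor gene Ezhip, was 0.29 and 0.34 FPKM, from 18 and 21 reads. None of the 13 reached a 1.5-fold difference.

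Developmental genes known as PRC2 targets in mouse embryonic stem cells were mostly near zero in both libraries. Of 28 such genes 26 had a mean below 1 FPKM, and the medians over the list were 0.035 and 0.065 FPKM. Genes near these medians held few reads, with wide counting intervals of their ratios, and the difference between the medians was not tested. Hoxa9 and Myod1 had 0 reads in both libraries, for which the one-sided limit of a count of 0 is 3 reads in each. Pax6, a homeobox gene of eye and neural development, was above this level, at 1.06 and 1.27 FPKM (interval of the ratio 1.04 to 1.38). No H3K27me3 was measured, so whether the mark was present at these genes cannot be read from the table.

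By the pair of levels on the log2(FPKM + 1) scale, the protein-coding genes nearest to Ezh2 were Eaf1 (12.6 and 15.3 FPKM), Dhps (12.4 and 14.9 FPKM) and Cap1 (12.7 and 14.6 FPKM). Those nearest to Eed were Supt4a, Fen1 and Usp39, and those nearest to Suz12 were Pdhb, Etv5 and Rpl18. The distances were at most 0.046, over 2 libraries.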

How the data were processed

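The authors deposited FPKM values of 1 library per group, rounded to 2 decimals, with a gene length per symbol. Per the submitters' processing notes, STAR 2.4.0i, featureCounts 1.5.0-p1 and the mm10 build were used. The annotation, strand setting, treatment of multiply mapped reads and pooling of cultures are not stated there or in the labels. The series' design text names triplicates, while the deposited table holds a single column for each group.

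Reads were rebuilt as FPKM times length times a denominator found from genes under 400 bases with fewer than 30 reads. Of these values, 100% (3120 and 3560) came out whole, allowing for rounding and a further 0.005 reads. For members the rounding leaves an error of at most 1.40 reads. Intervals are exact Poisson for a level and exact Clopper-Pearson for a ratio or share, at 95%. They cover counting error only and hold no spread between cultures. Reads lacking molecular identifiers can be copies of 1 molecule, which would make the intervals too narrow even for counting error. With 1 library per group, no test was made. Differences are log2(FPKM + 1), which understates the change of low genes. Steps were tested on simulated data. Gene types, positions and transcripts are from GENCODE M21 (GRCm38, the assembly of mm10), which holds 94.3% of the symbols, and promoters are from RefSeq (GRCm38.p6), matched by symbol for 10 of 10 members.

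Genes named are the members, the PRC2-linked list, Mettl8, Pou5f1, Nanog, developmental targets with a mean of at least 1 FPKM (1 is not reported here), genes sharing at least 50 exon bases with a member, and the 3 nearest genes for Ezh2, Eed and Suz12. Col1a1, Col1a2, Col3a1, Hoxa9, Myod1 and Gm6382 were named after their values were seen. The members and lists were chosen with earlier results of these data known. Alternatives tried were 3 scalings, a pseudocount of 0.1, other thresholds and filters, a 99% interval and other lengths. Python 3.11.15, pandas 2.3.3 and scipy 1.17.1 were used.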

Additional observations from a re-analysis of the deposited data

How the results depend on the processing

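The longest protein-coding transcript as length was an alternative chosen after seeing the data. The counts of members past 1.5-fold stayed at 0 each way at 1.2-fold and 2-fold, without a filter, at a mean of at least 5 FPKM and with a pseudocount of 0.1. Over all genes the 141 higher and 139 lower past 1.5-fold became 593 and 664 at 1.2-fold, 47 and 38 at 2-fold, 17 and 31 among genes with a mean of at least 5 FPKM, 391 and 312 with no filter, and 262 and 246 when 0.1 was the pseudocount. For protein-coding genes the 1375 above 1 and 874 below became 778 and 456 with a 99% interval. The 3 members with an interval above 1, Ezh2, Eed and Rbbp4, were the same genes with either protein-coding rescaling and with a 99% interval. This count was not made with each library rescaled to the same FPKM sum. Under that scaling 9 members were higher and 1 lower, beside 75.5% of all genes higher, so the count of 3 holds only for the settings named. The shares depended on length. Ezh2 took 73.1% and 77.8% of the reads of its pair, 73.2% and 77.9% per coding sequence, and 80.4% and 84.1% per transcript. Rbbp7 took 36.8% and 35.2% of reads and per coding sequence, and 53.4% and 51.7% per transcript. Mtf2 took 94.1% and 94.2% of reads, 94.0% and 94.1% per coding sequence, and 92.6% and 92.7% per transcript. Jarid2 took 76.3% and 76.8% per coding sequence. Jarid2 and Aebp2 held 60.1% and 59.6% of reads, 45.7% and 45.1% per coding sequence, and 50.1% and 49.6% per transcript. Of the 23 member and PRC2-linked genes, 10 moved beyond their counting interval with each library rescaled to the same FPKM sum and 0 under the other settings; the median of the members was then 0.086. No paired analysis was possible because each group has 1 library, and no library could be left out.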
